A study of Mus musculus with 6 samples.

Results

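The 10 genes described here, *Rhag*, *Rhd*, *Icam4*, *Kel*, *Xk*, *Aqp1*, *Slc14a1*, *Gypc*, *Ermap* and *Art4*, encode proteins that carry blood group antigens on the red cell surface, or that hold such proteins there. They were taken by name from the 39179 mouse genes listed, with earlier results of these data known, and 9 of them had enough reads to be tested, among 15980 genes tested in all. Whole bone marrow RNA was sequenced from 6 littermates, 3 of them *MxCDX2* and 3 controls. An *MxCDX2* mouse carries both *RsCDX2*, in which human *CDX2*, a homeobox factor of the gut, stands at the *Rosa26* locus behind a stop cassette that Cre removes, and *Mx1Cre*, in which the interferon-inducible *Mx1* promoter drives Cre. Of the controls, the first carries *RsCDX2* alone, the second *Mx1Cre* alone and the last neither (wild type), so the spread among controls includes a difference of genotype. All 6 mice, controls included, received 3 injections of pI:pC at 10 µg/g, an RNA mimic that raises interferon. They were 3 months of age when injected, and marrow was taken 6 weeks later. The *Mx1* promoter also responds in cells other than blood cells, and the marrow was not sorted.

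Blood group antigens are inherited differences in proteins or sugars of the red cell membrane that antibodies recognise after transfusion or in pregnancy. Most of the proteins are made late in red cell development, in erythroblasts, which in adults are found in the bone marrow. Several stand together in the membrane: RhAG and RhD form the core of the Rh complex, ICAM4 joins it, Kell is bound to XK, and glycophorin C ties the membrane to the skeleton of spectrin and actin. In the mouse, a single Rh gene, *Rhd*, takes the place of the human *RHD* and *RHCE* genes.

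Sequences before the starts of these genes are shown because many genes of red cell precursors are controlled by GATA1, which binds the letters GATA with flanking bases, and by KLF1, which binds C-rich letters. RefSeq windows on GRCm38.p6, from 250 bases before the transcription start to 50 after it, were searched for 8 of the 10 genes. GATA letters, AGATAA or TGATAA on either strand, were present in the windows of 6 of the 8 genes, *Rhag*, *Rhd*, *Icam4*, *Kel*, *Ermap* and *Art4*, and in 18.6% of all 32851 windows. C-rich letters, CCNCNCCC on either strand, were present in 4 of the 8 genes, *Rhd*, *Icam4*, *Xk* and *Aqp1*, and in 49.5% of all windows. *Rhd* and *Icam4* held both kinds, as did 5.73% of all windows. The letters TTTATNG, of the kind that CDX proteins bind, were present only in *Ermap* among the 8, and in 10.9% of all windows. Matches of different kinds did not overlap in the 5 windows printed. These are matches of letters and not binding sites, and binding was not measured.

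The windows of 5 genes follow, 5′ to 3′ in the direction of the gene, with the matched letters in capitals. *Rhag* and *Rhd* are the core of the Rh complex, *Kel* held 2 matches of the GATA letters, *Ermap* held the CDX letters, and *Xk*, with the smallest fold change of the 9 genes tested, held C-rich letters but no GATA letters. The same was true of *Aqp1*, not printed here, which had the largest fold change of the 9.
Rhag, chr17:40810899-40811198, plus strand: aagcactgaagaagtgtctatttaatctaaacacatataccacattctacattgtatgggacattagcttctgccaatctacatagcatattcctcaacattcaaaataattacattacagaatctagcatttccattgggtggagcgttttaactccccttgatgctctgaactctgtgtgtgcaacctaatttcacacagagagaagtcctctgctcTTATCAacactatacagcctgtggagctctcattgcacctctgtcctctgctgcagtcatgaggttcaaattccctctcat
Rhd, chr4:134864286-134864585, plus strand: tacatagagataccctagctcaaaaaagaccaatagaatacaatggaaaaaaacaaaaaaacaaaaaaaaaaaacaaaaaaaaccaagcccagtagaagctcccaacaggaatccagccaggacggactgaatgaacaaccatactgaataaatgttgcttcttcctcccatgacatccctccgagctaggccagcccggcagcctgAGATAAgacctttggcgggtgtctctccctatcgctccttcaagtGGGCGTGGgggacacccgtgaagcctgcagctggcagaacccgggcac
Kel, chr6:41704276-41704575, minus strand: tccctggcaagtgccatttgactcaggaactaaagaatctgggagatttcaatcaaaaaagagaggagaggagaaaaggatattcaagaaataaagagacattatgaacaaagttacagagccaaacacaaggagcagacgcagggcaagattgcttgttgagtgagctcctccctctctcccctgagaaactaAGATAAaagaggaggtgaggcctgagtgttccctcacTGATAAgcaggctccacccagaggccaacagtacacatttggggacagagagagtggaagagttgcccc
Ermap, chr4:119189946-119190245, minus strand: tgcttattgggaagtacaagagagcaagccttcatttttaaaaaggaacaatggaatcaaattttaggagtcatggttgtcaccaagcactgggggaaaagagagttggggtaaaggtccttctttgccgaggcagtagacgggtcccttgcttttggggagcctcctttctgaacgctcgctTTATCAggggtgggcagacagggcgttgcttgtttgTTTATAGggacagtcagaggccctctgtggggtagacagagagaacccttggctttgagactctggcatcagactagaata
Xk, chrX:9272534-9272833, plus strand: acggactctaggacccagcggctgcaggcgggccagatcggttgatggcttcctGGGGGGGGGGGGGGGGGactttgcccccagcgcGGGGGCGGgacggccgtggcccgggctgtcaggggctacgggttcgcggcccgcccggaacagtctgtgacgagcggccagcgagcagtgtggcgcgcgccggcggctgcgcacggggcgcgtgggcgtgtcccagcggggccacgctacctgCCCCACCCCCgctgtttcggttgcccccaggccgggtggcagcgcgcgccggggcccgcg

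In capitals in *Rhag* are the GATA letters on the opposite strand, 31 bases before the start. *Rhd* has GATA letters 43 bases before the start and C-rich letters 2 bases after it. In *Kel* both matches are GATA letters, 56 and 19 bases before the start. In *Ermap* the GATA letters are 67 bases before the start and the CDX letters 31 bases before it. The capitals of *Xk* hold 13 overlapping or separate matches of the C-rich letters, most of them within a single run of G. *Icam4* had GATA letters 43 bases before its start, *Art4* 104 bases before, and *Aqp1* had 3 matches of C-rich letters and no GATA letters.

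**Figure D1:**
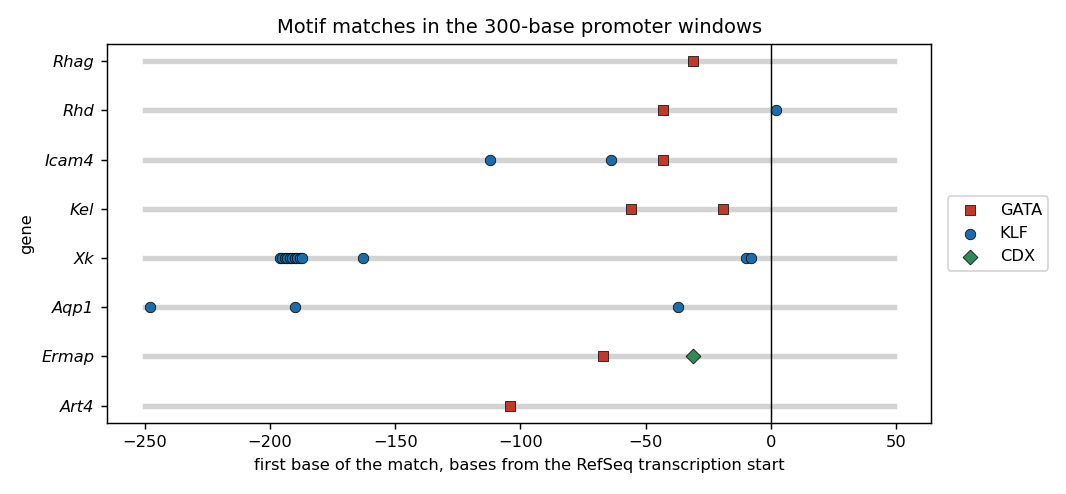
Matches of the letters of GATA, KLF and CDX factors in the 300-base windows of 8 blood group genes. The x axis gives the distance in bases of each match from the RefSeq transcription start, drawn at 0, and each grey line is the window of 1 gene. GATA letters lie between 104 and 19 bases before the start in 6 of the 8 genes.

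Every blood group gene that could be tested was lower in *MxCDX2* marrow. All 9 passed both thresholds, which were those of the study's methods: more than 1 in either direction on the log2 scale, and below 0.05 for the p adjusted by Benjamini-Hochberg over all tested genes, here from the quasi-likelihood test of edgeR. Over all tested genes, 9.03% were called lower and 4.59% higher. The means fell to between 8.12% of the control mean for *Aqp1* and 39.0% for *Xk*. The median log2 fold change of the 9 genes was -3.29, against 0.002 over all tested genes. In each of the 9, every *MxCDX2* mouse was below every control mouse, a separation seen in 20.7% of all tested genes, while the opposite separation was seen in 21.4%. Within the *MxCDX2* group the order was mouse 1, then mouse 3, then mouse 2 in all 9 genes, an order found in 26.0% of tested genes. With *MxCDX2* mouse 3 left out, 5 of the 9 genes remained past the thresholds. Adjusted p-values were then 0.0657 for *Rhag*, 0.0660 for *Rhd*, 0.0645 for *Ermap* and 0.0570 for *Art4*, with log2 fold changes still between -3.29 and -2.92. In bulk marrow, fewer red cell precursors and less of an RNA in each of them cannot be told apart.

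Mouse *Cdx2* had 4, 0 and 0 reads in the control mice and 152, 155 and 183 in the *MxCDX2* mice. The transgene is human, and reads from it and from the mouse gene cannot be told apart in this count. Between 38646101 and 49899650 reads were counted for each mouse. The 10 erythroid markers, among them *Alas2*, the first enzyme of heme synthesis in red cells, were all called lower, and their summed level in the *MxCDX2* mice was 5.97% to 19.4% of the control mean. None of the erythroid markers was at 0 in any mouse. The wild-type control stood apart in other lists: its summed megakaryocyte markers were 273445 normalized counts, against 32758 and 23095 in the other controls and 10275 to 14053 in the *MxCDX2* mice. Where leaving out the wild-type mouse changed the call or direction of a value named below, or moved it by over 1.5 times, the value without it is given as well.

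In what follows, levels are normalized counts, that is, reads scaled to a common library size with edgeR's TMM factors. Control values are in the order *RsCDX2*, *Mx1Cre*, wild type, and *MxCDX2* values in the order of mice 1, 2 and 3. Means are given ± SD with n = 3 mice in each group, and log2 fold changes are *MxCDX2* minus control with their standard errors (SE).

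**Figure D2:**
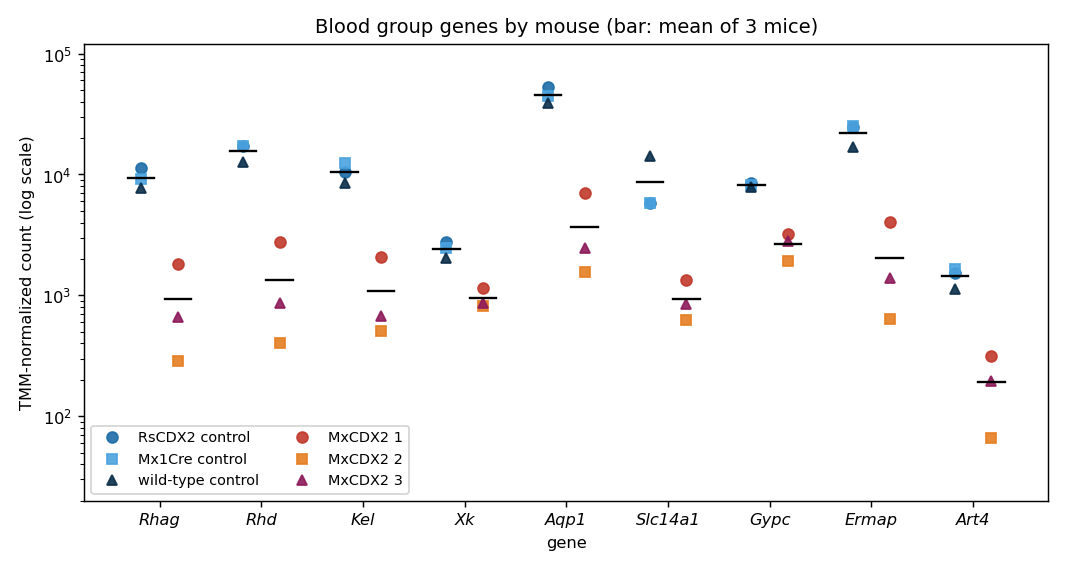
TMM-normalized counts of the 9 blood group genes with reads, on a log10 axis, for each control mouse (left of each pair) and each *MxCDX2* mouse (right). Each point is a mouse and each bar the mean of 3 mice. In every gene the 3 *MxCDX2* mice lie below the 3 controls, with mouse 2 lowest, and in *Slc14a1* the wild-type control lies above the other controls.

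Both core genes of the Rh complex were reduced. *Rhag* (chr17:40811126-40840754, plus strand) encodes the Rh-associated glycoprotein, without which the Rh complex does not reach the membrane. Its levels were 11204, 9223 and 7719 in controls and 1825, 288 and 662 in *MxCDX2* mice. The lowest control was thus above the highest *MxCDX2* mouse, and the *MxCDX2* mice spread over 6.34-fold. The mean went from 9382 ± 1748 to 925 ± 802, a log2 fold change of -3.34 (SE 0.65, adjusted p = 0.0144). *Rhd* (chr4:134864536-134896172, plus strand), which encodes the Rh protein itself, had 17035, 17125 and 12681 in controls and 2776, 402 and 868 in *MxCDX2* mice. Its groups did not overlap either, and mouse 1 was again the highest of the 3 *MxCDX2* mice. Mean *Rhd* was 11.6-fold lower, a log2 fold change of -3.53 (SE 0.69, adjusted p = 0.0150).

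The third Rh gene gave no reads. *Icam4* (chr9:21029373-21030595, plus strand) encodes ICAM4, the adhesion protein that carries the LW antigen. It was listed at 0 in all 6 mice, which allows up to 3 reads per mouse, and it was not tested. All 1110 of its exon bases lie inside an exon of *Gm47079*, an antisense gene on the opposite strand in GENCODE M21. *Gm47079* is not among the genes listed in the counts of these mice, which came from another annotation. For comparison, opposite-strand exons in GENCODE M21 were taken whether or not their genes are listed in the counts. Of 35 listed protein-coding genes whose exons lie wholly inside such exons, 24 (68.6%) were at 0 in every mouse. Among the other 21191 protein-coding genes 3985 (18.8%) were at 0. The strand setting used for counting is not given in the sources used here, and the part of the overlap in the zeros of *Icam4* was not tested. The zeros therefore give no level of *Icam4* in either group. Its neighbour *Icam1*, an adhesion receptor of many cell types, had 984, 958 and 1503 in controls and 1721, 1013 and 1253 in *MxCDX2* mice, and these ranges overlapped.

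The genes of the Kell pair both fell, by different amounts. *Kel* (chr6:41686330-41704339, minus strand) encodes the Kell glycoprotein, an endopeptidase that cleaves endothelin precursors. Its levels were 10555, 12530 and 8580 in controls and 2059, 503 and 671 in *MxCDX2* mice. The groups were far apart, and the mean was 9.80-fold lower, a log2 fold change of -3.29 (SE 0.56, adjusted p = 0.00905). *Xk* (chrX:9272756-9313250, plus strand) encodes XK, a membrane protein that scrambles lipids and is bound to Kell by a disulfide bond. It is also expressed outside blood, in muscle and brain. Its levels were 2788, 2451 and 2040 in controls and 1148, 819 and 870 in *MxCDX2* mice. *Xk* was lower in every *MxCDX2* mouse than in every control but by the least of the 9 genes, 2.57-fold, a log2 fold change of -1.36 (SE 0.18, adjusted p = 0.00445). Its 95% interval, -1.80 to -0.92, did not overlap that of *Kel*, -4.62 to -1.97. When the test asked for a change beyond 1 on the log2 scale, the adjusted p of *Xk* was 0.161.

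Both channel genes fell. *Aqp1* (chr6:55336432-55348555, plus strand) encodes aquaporin-1, the water channel that carries the Colton antigens. Its levels were 52754, 44409 and 39148 in controls and 7066, 1546 and 2462 in *MxCDX2* mice. It had the largest change of the 9 genes, 12.3-fold lower, a log2 fold change of -3.62 (SE 0.58, adjusted p = 0.00778). *Slc14a1* (chr18:78100091-78142119, minus strand) encodes the urea transporter UT-B, which carries the Kidd antigens and is also made by endothelial cells. Its levels were 5784, 5854 and 14227 in controls and 1334, 623 and 850 in *MxCDX2* mice. The wild-type mouse was the highest control for *Slc14a1* and the lowest control for the other 8 genes, while 39.5% of all tested genes were lowest in that mouse. *Slc14a1* was 9.22-fold lower, a log2 fold change of -3.20 (SE 0.47, adjusted p = 0.00561), and without the wild-type mouse its log2 fold change was -2.62 (adjusted p = 0.00414).

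Markers of other cells also differed in the wild-type mouse, in both directions. Beside the 9.79-fold excess of summed megakaryocyte markers over the mean of the other controls, endothelial markers were 2.25-fold higher there and those of erythroid island macrophages 2.19-fold higher. The other lists were lower there than the mean of the other controls, erythroid markers at 0.758 times that mean, neutrophil markers at 0.670, monocyte markers at 0.579 and B cell markers at 0.472. None of these markers was at 0 in any mouse. The part of these cells in the level of *Slc14a1* was not tested.

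**Figure D3:**
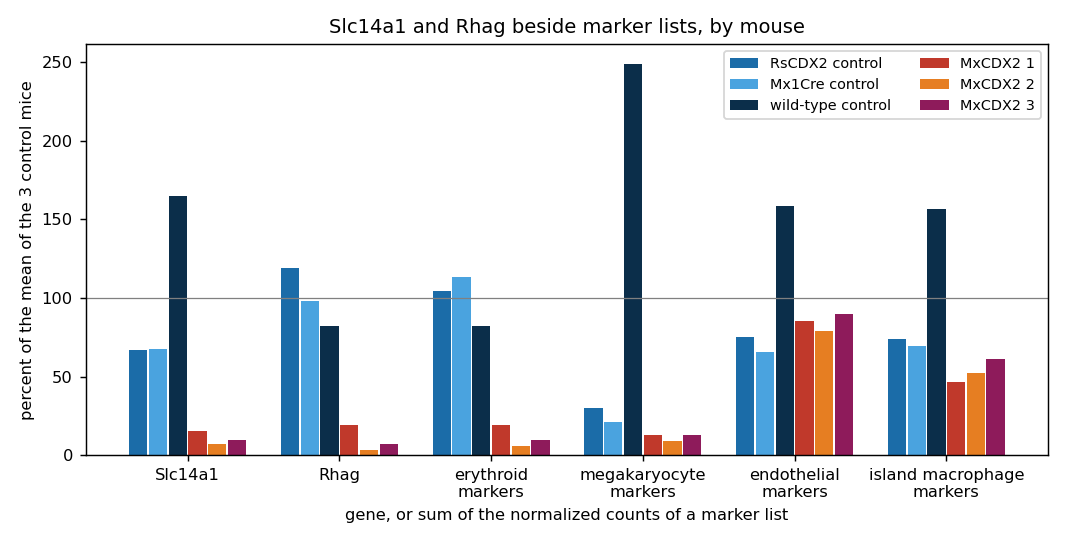
*Slc14a1*, *Rhag* and the summed normalized counts of 4 marker lists in each mouse, as percent of the mean of the 3 control mice (grey line at 100). The wild-type bar is the tallest for *Slc14a1* and for the megakaryocyte, endothelial and island macrophage lists, and the shortest of the 3 controls for *Rhag* and the erythroid list.

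Glycophorin C, the other member with a small change, had close values among the control mice. *Gypc* (chr18:32528322-32560034, minus strand) encodes the glycophorin that carries the Gerbich antigens and binds protein 4.1 of the skeleton, and it is also transcribed in other blood cells. Its levels were 8420, 8207 and 7846 in controls and 3221, 1910 and 2837 in *MxCDX2* mice. The controls differed least of all 9 genes, and the mean fell from 8158 ± 290.1 to 2656 ± 674. That was a 3.07-fold reduction, a log2 fold change of -1.62 (SE 0.19, adjusted p = 0.00318).

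The remaining genes, whose roles in red cells are less clear, were also reduced. *Ermap* (chr4:119175457-119190011, minus strand) encodes an erythroblast membrane protein of the butyrophilin family that carries the Scianna antigens. Its levels were 24750, 24993 and 16858 in controls and 4051, 643 and 1382 in *MxCDX2* mice, with no overlap. The mean went from 22200 ± 4628 to 2025 ± 1793, a log2 fold change of -3.46 (SE 0.67, adjusted p = 0.0142). *Art4* (chr6:136848451-136857733, minus strand) encodes a lipid-anchored protein of the ADP-ribosyltransferase family that carries the Dombrock antigens. It had the lowest counts of the 9 genes, 1536, 1648 and 1120 in controls and 314, 65.6 and 197 in *MxCDX2* mice. *Art4* was 7.47-fold lower, a log2 fold change of -2.90 (SE 0.54, adjusted p = 0.0123). For each of the 9 genes taken alone, the exact two-sided permutation test over mice gave p = 0.1, the smallest that 3 against 3 allows.

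Per length of exon, the order of the genes changed between the groups. In RPKM, reads scaled by exon length and library size and computed from the counts, control marrow had *Aqp1* at 380 ± 57.4, *Rhd* at 215 ± 35.0, *Ermap* at 92.2 ± 19.2, *Rhag* at 88.2 ± 16.4 and *Kel* at 83.7 ± 15.7. Below these stood *Gypc* at 77.0 ± 2.74, *Slc14a1* at 47.5 ± 26.7, *Art4* at 12.5 ± 2.43 and *Xk* at 10.5 ± 1.62. Among neighbours in that order, the mice did not overlap between *Aqp1* and *Rhd*, *Rhd* and *Ermap*, or *Slc14a1* and *Art4*, and the other neighbours overlapped. In *MxCDX2* marrow *Aqp1* was at 30.9 ± 24.8 RPKM and *Gypc* came next at 25.1 ± 6.36, above *Rhd* at 18.6 ± 17.4. *Art4* was lowest at 1.68 RPKM, below *Xk* at 4.10, and that was the only pair of neighbours without overlap in these mice.

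Set beside other genes of red cell precursors in the same mouse, *Xk* and *Gypc* fell less than the markers did. The mean log2 level of the 10 erythroid markers fell by 3.53 from control to *MxCDX2* marrow. The log2 ratio of *Xk* to that mean was -2.93, -3.16 and -3.06 in controls and -1.73, -0.07 and -0.83 in *MxCDX2* mice, a difference of 2.17. For *Gypc* the ratios were -1.33, -1.42 and -1.12 in controls and -0.24, 1.15 and 0.87 in *MxCDX2* mice, a difference of 1.88. In both genes the groups did not overlap (exact two-sided permutation test, p = 0.1, the smallest possible). Any gene that did not change would also rise in this ratio, by 3.53, and the median log2 fold change of all tested genes was 0.002. The share of all tested genes without overlap in this ratio was not computed. *Kel* had the difference nearest to 0, -0.02 (exact permutation p = 1.0), and -0.05 without the wild-type mouse. Differences for *Rhag* (-0.18), *Ermap* (-0.30) and *Slc14a1* (0.40) were within overlapping groups, with exact permutation p-values of 0.5, 0.2 and 0.6. For *Slc14a1* the overlap came from the wild-type mouse. Its ratios were -1.88, -1.90 and -0.26 in controls and -1.52, -0.46 and -0.86 in *MxCDX2* mice. Without the wild-type mouse the difference was 0.94, and every *MxCDX2* mouse was above the remaining controls. *Aqp1* (-0.38) and *Rhd* (-0.43) were lower relative to the markers in every *MxCDX2* mouse, and *Art4* (0.39) was higher, each with the smallest p. With 11 genes of the band 3 complex and the skeleton as the reference, *Xk* and *Gypc* kept differences of 1.25 and 0.96, while *Art4* and *Slc14a1* both turned to -0.53 and were then nearest to 0. Under that reference *Kel* was at -0.95, *Rhag* at -1.11, *Ermap* at -1.22, *Aqp1* at -1.30 and *Rhd* at -1.36. The mean of that reference includes *Cd47*, *Mpp1* and *Slc2a1*, which were not called (log2 fold changes -0.24, -0.56 and 0.21). The median log2 fold change of its 11 genes was -3.30, against -3.42 for the erythroid markers. Monocyte markers, summed, were at 383% to 459% of the control mean in the *MxCDX2* mice, and their part in the values of *Xk* and *Gypc* was not tested.

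**Figure D4:**
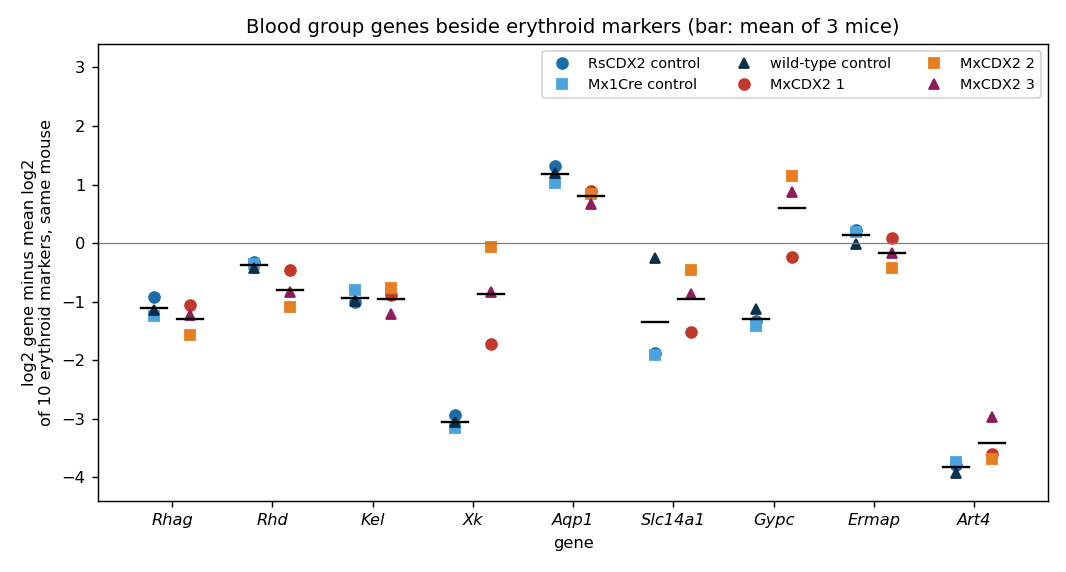
Log2 level of each blood group gene minus the mean log2 level of 10 erythroid markers in the same mouse, controls left and *MxCDX2* mice right in each pair, with bars at the mean of 3 mice. A value of 0 means a level equal to that mean. *Xk* and *Gypc* rise by 2.17 and 1.88 relative to the markers, and with all mice the other 7 genes differ by 0.43 or less in either direction. Without the wild-type control, *Slc14a1* differs by 0.94.

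Distances over the 6 mice were taken from the median pattern of the tested blood group genes themselves, so small distances are partly built in. The share of all tested genes at such distances was not computed. The root mean square distance of a gene's centred log2 values from the median pattern of the blood group genes was 0.157 for *Kel*, 0.190 for *Rhag*, 0.220 for *Ermap*, 0.236 for *Aqp1*, 0.278 for *Rhd* and 0.312 for *Art4*. It was 0.658 for *Slc14a1*, 1.04 for *Gypc* and 1.19 for *Xk*. By the same measure the nearest genes outside the list were *Slc6a9*, a glycine transporter, at 0.0887, *Car2*, carbonic anhydrase 2, at 0.101, *Sptb*, red cell beta-spectrin, at 0.113, *Trim58*, a ubiquitin ligase, at 0.116, and *Cdkl1*, a kinase, at 0.118. Their log2 fold changes lay between -3.43 and -3.18.

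Other genes of human blood group systems were mostly not called, and nearly all of those called were lower. Of 34 such genes 33 were matched and 30 tested, of which 12 were called lower, 1 higher and 17 neither, with a median log2 fold change of -1.13. Over all tested genes, 9.03% were called lower and 4.59% higher, so 1 of 30 called higher was not above its share. Among carriers in the red cell membrane, *Slc4a1*, the band 3 anion exchanger, went from 157278 ± 21963 to 14854 ± 12278 (-3.40, adjusted p = 0.0136). *Ackr1*, the chemokine receptor that carries the Duffy antigens, and *Smim1*, which carries Vel, had log2 fold changes of -3.10 and -3.09 (adjusted p = 0.0119 and 0.0110). Among transporters, *Abcg2* had -2.11 (adjusted p = 0.00212), *Abcb6* -1.73 (adjusted p = 0.00318) and *Aqp3* -2.01 (adjusted p = 0.0137). *A4galt*, which makes the P1 and Pk sugars, had -1.57 (adjusted p = 0.0427).

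A further 4 genes called lower encode proteins held to the membrane by a lipid anchor. Another such gene, *Sema7a*, which carries the JMH antigens, was not called (-1.05, adjusted p = 0.124), and it is named here after its value was seen. *Ache*, acetylcholinesterase with the Yt antigens, had 2593, 2949 and 6499 in controls and 493, 306 and 261 in *MxCDX2* mice (-3.51, adjusted p = 0.00369). As for *Slc14a1*, the wild-type mouse was the highest control for *Ache*, and the log2 fold change was -2.96 without it. *Cd59a*, an inhibitor of complement, had -3.17 (adjusted p = 0.00401), *Cd55*, which speeds the decay of complement convertases, -2.41 (adjusted p = 0.00231), and *Prnp*, the prion protein, -2.20 (adjusted p = 0.00253).

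*Piezo1*, the mechanically gated cation channel that carries the Er antigens, was the blood group gene called higher, from 3697 ± 601 to 8566 ± 759 (1.21, SE 0.15, adjusted p = 0.00331). The most abundant genes that were not called are made by many blood cells. The adhesion receptor *Cd44* had a log2 fold change of -0.47 (adjusted p = 0.0869), basigin, *Bsg*, -0.88 (adjusted p = 0.00917), the choline transporter-like *Slc44a2* 0.90 (adjusted p = 0.0187) and *Emp3* 0.72 (adjusted p = 0.00751). The last 3 of these missed only the threshold on size. Without *MxCDX2* mouse 3, 7 of these other blood group genes were called, against 13 with all mice. Without the wild-type mouse, *A4galt* was no longer called (-1.12, adjusted p = 0.0712) and *Slc44a2* was called higher (1.10, adjusted p = 0.00732).

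**Figure D5:**
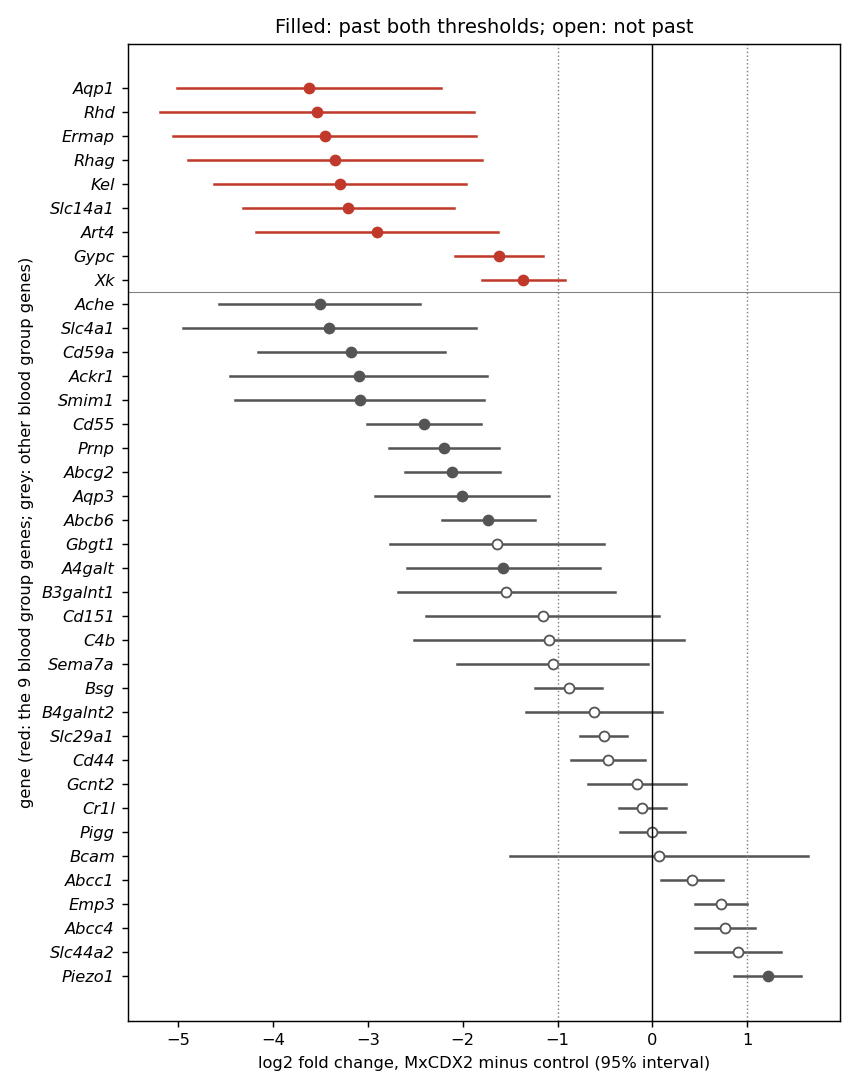
Log2 fold change, *MxCDX2* minus control, with 95% intervals for the 9 tested blood group genes (red) and other blood group genes (grey). Filled points passed both thresholds, and dotted lines mark log2 fold changes of -1 and 1. All 9 red points lie below -1, *Xk* and *Gypc* nearest to that line, while the grey points run from -3.51 for *Ache* to 1.21 for *Piezo1*.

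Relatives in the same protein families were mostly not called. Of 36 relatives 35 were matched and 22 tested, of which 6 were called lower, 2 higher and 14 neither, with a median log2 fold change of -0.67. The shares called over all tested genes were smaller, 9.03% lower and 4.59% higher. *Btnl10*, a butyrophilin-like relative of *Ermap*, had 11620, 11456 and 9405 in controls and 1982, 296 and 740 in *MxCDX2* mice (-3.43, adjusted p = 0.0137), while *Btnl9* had 0.04 (adjusted p = 0.918). *Ece1*, an endothelin-converting enzyme of the family of *Kel*, was called higher (1.47, adjusted p = 0.00212), while *Ece2* had 0.44 and *Mme* -2.19 (adjusted p = 0.119 and 0.0674), and *Mme* had -1.42 without the wild-type mouse (adjusted p = 0.138). *Aqp9*, an aquaglyceroporin, was called lower (-2.29, adjusted p = 0.00748). Of the relatives of *Xk*, *Xkr5*, *Xkr6*, *Xkr8* and *Xkrx* had log2 fold changes of 0.12, -0.31, -0.27 and -1.47, none of them called. *Icam1* and *Icam2* had 0.21 and 0.41 (adjusted p = 0.612 and 0.0557). The other calls, all in genes with few reads, were *Rhcg*, *Icam5*, *Aqp11* and *Btn1a1*, lower, and *Aqp8*, higher. Without the wild-type mouse, *Aqp11* was no longer called (-1.20, adjusted p = 0.0676), *Aqp8* had a log2 fold change of 3.97, against 4.57 with all mice, and *Mmel1*, named after its value was seen, was called lower (-1.40, adjusted p = 0.0240). Calls numbered 3 without *MxCDX2* mouse 3 and 5 without mouse 2, against 8 with all mice.

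Most genes of the proteins that hold the antigens in the membrane fell too. Of 11 genes of the band 3 complex and the skeleton, 8 were called lower and none higher, with a median log2 fold change of -3.30. The shares over all tested genes were 9.03% lower and 4.59% higher. *Sptb*, red cell beta-spectrin, had a log2 fold change of -3.37, *Ank1*, which ties band 3 to spectrin, -3.30, and *Epb42*, protein 4.2, -3.36. *Epb41*, protein 4.1, the partner of glycophorin C, had -2.25. *Dmtn*, *Add2* and *Tmod1*, which bind or cap actin, had -3.40, -3.48 and -3.08. Not called were *Cd47*, a protein of the Rh complex that many cells carry (-0.24, adjusted p = 0.275), *Mpp1*, the scaffold that binds glycophorin C (-0.56, adjusted p = 0.00866), and the glucose transporter *Slc2a1* (0.21, adjusted p = 0.584). Without *MxCDX2* mouse 3, 3 of the 11 were called.

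Marker lists of other cells moved too. Beside the calls given here and in the next paragraph, 9.03% of all tested genes were called lower and 4.59% higher. Without the wild-type mouse, 1482 of 16179 tested genes were called lower and 924 higher. Monocyte markers were called higher in 4 of 6, led by *F13a1*, from 13641 ± 5972 to 113831 ± 9027. Called lower were 4 of 6 B cell markers, with *Cd79b* the most abundant (log2 fold change -1.71), and 3 of 7 neutrophil markers, with *S100a9* the most abundant (-1.56). Summed levels of the *MxCDX2* mice were at most 39.3% of the control mean for B cell markers and 35.2% to 47.6% for neutrophil markers. The neutrophil markers did not move alike. *Mpo* and *Elane*, the least abundant of that list, had 0.31 and -0.31 (adjusted p = 0.725 and 0.770), and the sum hardly reflects them. Without the wild-type mouse they had -0.11 and -0.77 (adjusted p = 0.634 and 0.0267). *Camp* and *Ngp*, also not called, had -1.18 and -1.06. These genes were named after their values were seen. Without the wild-type mouse, calls were 4 higher and 1 lower for monocyte markers and 5 lower for each of the B cell and neutrophil lists.

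Among the lists that were high in the wild-type mouse, values depended on that mouse. For megakaryocyte markers, the *MxCDX2* sums were 9.36% to 12.8% of the mean of all controls and 36.8% to 50.3% of the mean of the other controls. Their calls were 3 of 7 lower with all mice and 5 of 7 without the wild type, and *Ppbp*, the most abundant, had -3.62 (adjusted p = 0.0519) with it and -1.55 (adjusted p = 0.0294) without it. For endothelial markers the direction of the sums turned, from 78.7% to 89.9% of the mean of all controls to between 112% and 127% of the mean of the others. Of these 7 markers 1, *Cdh5*, was called lower with all mice and none in either direction without the wild type, where *Cdh5* had -1.21 (adjusted p = 0.0666) and *Pecam1*, the most abundant, had 0.67 (adjusted p = 0.00684), against 0.28 (adjusted p = 0.497) with all mice. *Pecam1* made up most of the endothelial sums in *MxCDX2* mice, 5684, 4806 and 5434 of 6925, 6379 and 7281. Without the wild type, all the other endothelial markers had negative log2 fold changes, between -1.21 and -0.32. For island macrophage markers the sums were 46.9% to 61.3% of the mean of all controls and 65.4% to 85.6% of the mean of the others, with 3 of 6 called lower in both fits and *Adgre1* called higher in the fit without the wild type. *Vcam1*, the most abundant of these, had -2.04 with all mice. *Cdh5* and *Adgre1* were named after their values were seen. The part of these shifts in the blood group values was not tested.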

How the data were processed

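Bone marrow RNA of 6 mice was sequenced with a stranded mRNA kit. The authors aligned reads with STAR (version 2.5) to GRCm38 and counted them with HTSeq (version 0.6.1, Ensembl 90), and they deposited the raw counts per gene of each mouse. Entries that name no gene, with 12.2% to 17.1% of the reads of a file, were left out of library sizes and tests. Groups came from the sample labels, and replicates were separate mice.

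Counts were tested in R 4.3.3 with edgeR 4.0.16 (TMM, filterByExpr, glmQLFit, glmQLFTest), with Benjamini-Hochberg adjustment over 15980 genes. Standard errors came from the quasi-likelihood F statistic. Ratios used log2(normalized count + 1). Symbols, positions and exon lengths were those of GENCODE M21 (GRCm38). RefSeq promoter windows were of the same build. DESeq2 1.42.0, limma 3.58.1 (voom), other scalings, filters and thresholds, and each mouse left out in turn were alternatives. The test was tested on simulated counts. Python 3.11.15 was used for the other steps, with scipy 1.17.1, pandas 2.3.3, numpy 2.4.6 and matplotlib 3.10.9.

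The blood group genes and all other lists were chosen with earlier results of these data known. Named were all 10 genes, other blood group genes past the thresholds and the 4 most abundant that were not, relatives and membrane partners whose mean reached 100 normalized counts, the most abundant gene of each marker list, the 5 genes nearest in pattern, and *Cdx2*. Relatives past the thresholds with fewer counts were named after their values were seen. With 38646101 to 49899650 counts per mouse, the spread between mice limits precision, and the limit given for a count of 0 covers counting error only. Protein sequences and promoters of 2 genes were not used here, and some named genes are counted in their lists but not reported one by one.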

Additional observations from a re-analysis of the deposited data

How the results depend on the processing

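All 135 log2 fold changes of the 9 tested blood group genes under 15 alternatives were below 0, and 122 of them remained past the thresholds. The other 13 were *Rhag*, *Rhd*, *Ermap* and *Art4* in the test against a log2 fold change of 1, at an adjusted p below 0.01 and without *MxCDX2* mouse 3, and *Xk* in the test against a log2 fold change of 1. That test called 4 of the 9 blood group genes (611 genes in all, against 2177), 7 of the other blood group genes (against 13), 2 relatives (against 8) and 5 membrane partners (against 8). An adjusted p below 0.01 called 5, 1043, 7, 4 and 2 of the blood group genes, all genes, other blood group genes, relatives and membrane partners. At least 10 counts in every mouse left 5 relatives called. With each mouse left out in turn, calls ranged from 5 to 9 for the blood group genes, 1205 to 2406 for all genes, 7 to 13 for the other blood group genes, 3 to 8 for relatives and 3 to 8 for membrane partners. DESeq2 called 2900 genes in all and all 9 blood group genes. Relative to erythroid markers, the median difference of the 9 genes was -0.02, and -0.95 with membrane partners as the reference. The mean of the partners fell less, and it includes *Cd47*, *Mpp1* and *Slc2a1*, which were not called. Relative to erythroid markers, the median difference ranged from -0.06 to 0.10 with a mouse left out. The reasons for the other changes were not tested. Scaling by total counts moved the median log2 fold change of all genes to 0.118, from 0.002. The alternatives for relatives, partners and marker lists were chosen after seeing the data. No paired analysis was possible because only the *MxCDX2* mice are numbered in the labels.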
